A study of Mus musculus with 12 samples.

Results

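The family of miR-28, miR-151 and miR-708 was described by the rows of the count table that carry the names of its mature miRs. 6 of the 1927 listed miRs were members: miR-28a-5p/28c and miR-28a-3p, miR-151-5p and miR-151-3p, and miR-708-5p and miR-708-3p. These are the arms of the hairpins miR-28a, miR-151 and miR-708, and the first row also holds miR-28c, the product of a separate locus, whose reads cannot be told apart from those of miR-28a-5p. The members were chosen by their levels, arm ratios, fall along the library index numbers and difference between genotypes in these same libraries. Those values are therefore given as descriptions, without p-values.

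miR-seq was performed on livers of female mouse fetuses at E18.5, close to birth. The groups were wild-type (WT) fetuses (n = 5) and littermates that inherited a deletion of Mir483 from the father (Mir483Pat-KO, n = 7), with 1 library per fetus. Mir483 lies in an intron of the imprinted gene Igf2, and the comparison asked how its constitutive loss changes liver miRs. The deletion was made with Cre in C57BL/6N embryonic stem cells of 2 independent clones and is carried by every cell of the fetus, and the colony was kept on a C57BL/6J background. Which clone the fetuses descend from is not given in the sources used here.

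A miR hairpin is cut into a 5p and a 3p strand, and an Argonaute protein holds one of them and pairs its seed, the bases just after the first, with target mRNAs. miR-28 and miR-708 are known for a common 5p seed and as miRs that lie within introns of larger genes, and miR-151 as a miR of the focal adhesion kinase gene. In liver cancer miR-151 has been linked with that kinase to cell migration, and elsewhere miR-28 has been linked to the growth of B cells and miR-708 to tumor spread.

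The mature sequences of 4 members were matched by name in a RefSeq table on GRCm38.p6, and miR-28b, listed in the count table at 0 reads in all 12 libraries, was matched too. The sequences are shown because the seed is what ties the 5p arms of miR-28a and miR-708 together. Capitals mark bases 2 to 8, the seed.
mmu-miR-28a-5p: aAGGAGCUcacagucuauugag
mmu-miR-708-5p: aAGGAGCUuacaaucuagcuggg
mmu-miR-28b: aGGAGCUCacaaucuauuuag
mmu-miR-28a-3p: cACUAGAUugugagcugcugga
mmu-miR-708-3p: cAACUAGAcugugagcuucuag
No sequence is given for miR-28c, miR-151-5p or miR-151-3p.

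miR-28a-5p and miR-708-5p have the same seed, AGGAGCU, and none of the other mature miRs among the 1738 of the table has it. miR-28c, miR-151-5p and miR-151-3p were not matched by name there, so whether they carry it was not checked. Counted from the 5′ end of miR-28a-5p, 16 of 22 aligned bases are the same in miR-708-5p, and the differences are C9U, G13A, U18G, U19C, G20U and A21G, all of them after the seed. miR-28b begins at the second base of miR-28a-5p, so its seed is shifted to GGAGCUC. Over the 21 aligned bases it differs from miR-28a-5p by G13A and G20U only. The 3p arms do not share a seed: miR-28a-3p carries ACUAGAU and miR-708-3p carries AACUAGA. With the 3p arms shifted by 1 base, 17 of 21 aligned bases are the same, with UGUGAGCU as the longest common run.

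The hairpins of miR-28a, miR-708 and miR-151 each lie inside a protein-coding gene. Mir28a (chr16:24827855-24827940, + strand) is in an intron of Lpp, which encodes a LIM protein of focal adhesions, in 3 of the 3 transcripts that span it. The mature miR-28a-5p is at chr16:24827868-24827889 and miR-28a-3p at chr16:24827908-24827929. Mir708 (chr7:96249424-96249532, + strand) is in an intron of Tenm4, a teneurin gene, in 7 of 7 transcripts, with miR-708-5p at chr7:96249450-96249472 and miR-708-3p at chr7:96249496-96249517. Mir151 is in an intron of Ptk2, the gene of focal adhesion kinase, in 5 of 5 transcripts. Positions of hairpins and hosts are those of GENCODE M21 on GRCm38, and these 3 hairpins lie on the strand of their host.

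The libraries held 658665 to 1211160 counted reads, with a median of 929129 in WT and 742582 in Mir483Pat-KO. miR-483-3p had 733 to 1281 reads in the WT livers and 0 to 19 in the Mir483Pat-KO livers, so every library matched its label. The index number that names each library was 37 to 41 for WT and 42 to 48 for Mir483Pat-KO, so that index order and genotype are confounded across the series. What the order of the index numbers reflects is not given in the sources used here. Each library's column name also holds a number, called its animal number here, although the labels do not say what it stands for. Within each genotype the animal numbers put the libraries in the same order as the index. With a limit of 450 that was set for this report, they fell into a range under it (4 WT and 4 Mir483Pat-KO) and a range above it (WT replicate 5 and Mir483Pat-KO replicates 5, 6 and 7). The hepatocyte marker miR-122-5p was at 126837 to 161197 CPM (counts scaled to a common library size) in WT and 118609 to 169818 CPM in Mir483Pat-KO, which fits the labelled tissue.

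Reads of the family made up 0.126% to 0.177% of all counts in a library. Levels below are CPM scaled by TMM, a library scaling that assumes most miRs are unchanged. They are levels of reads per mature miR, which are of nearly the same length. How evenly the library preparation captured different mature miRs was not measured, so orders and ratios between miRs or strands are those of reads. miR-28a, counted with the miR-28c of its joined row, held 49.5% of the family's reads, miR-151 48.5% and miR-708 2.01%. The rows of miR-28a and miR-151 thus carried nearly all of it. The family summed to 1551 ± 116 CPM in WT (SD, n = 5) and to 1423 ± 87.5 CPM in Mir483Pat-KO (SD, n = 7), over ranges of 1429 to 1690 and 1308 to 1525 CPM that overlap.

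miR-28a-5p/28c, which includes the strand with the AGGAGCU seed, was the member with the highest level. In WT replicates 1 to 5 it was at 602, 577, 523.8, 487.4 and 409.9 CPM. In the Mir483Pat-KO livers it ranged from 386 to 569 CPM with a median of 457. The genotypes overlapped, with 2 of the 7 Mir483Pat-KO livers below the lowest WT liver and none above the highest. In both genotypes the libraries with the lowest index numbers were high and those with the highest index numbers were low.

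miR-28a-3p, the partner strand of the same hairpin, was lower than it in all 12 livers. Its levels in WT replicates 1 to 5 were 231, 300, 235, 215 and 292 CPM. In Mir483Pat-KO they ran from 195 to 292 CPM with a median of 232. The ranges of the genotypes lie nearly on top of each other, and here WT replicate 5 was among the high livers, whereas it was the lowest for miR-28a-5p/28c.

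miR-151-5p was the steadiest member. WT replicates 1 to 5 had 374, 383, 369, 340 and 396 CPM. The Mir483Pat-KO livers ranged from 350.7 to 408.2 CPM with a median of 379. No liver of either genotype stood apart.

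miR-151-3p, from the other strand of that hairpin, had 410, 400, 385, 368 and 314 CPM in WT replicates 1 to 5. In the Mir483Pat-KO livers it ranged from 279 to 356 CPM with a median of 316. All 7 Mir483Pat-KO livers were below the WT median and 3 of them were below every WT liver, but the genotypes overlapped, with WT replicate 5 inside the Mir483Pat-KO range.

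The miR-708 arms were close to the limit of counting. miR-708-5p had 6, 10, 10, 11 and 10 reads in WT replicates 1 to 5. In Mir483Pat-KO replicates 1 to 7 it had 7, 5, 5, 7, 4, 8 and 0 reads. In CPM these were 5.15 to 13.4 in WT and 0 to 9.83 in Mir483Pat-KO, where 3 reads, the limit that a count of 0 allows, stand for 4.08 CPM in replicate 7. miR-708-3p was at 13.7, 20.6, 30.9, 20.3 and 7.05 CPM in WT replicates 1 to 5, and at 11.2 to 46.1 CPM with a median of 25.8 in Mir483Pat-KO. A count of 0 says little of absence in this table. No entry has a count of 1. For 822 entries, the counts in the other libraries of the genotype and the library size predicted 4 to 8 reads. Of these, 254 (30.9%) were listed at 0, where counting error alone around a mean of 4 reads would give 1.83%. Variation between livers is not part of that 1.83% and was not separated.

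**Figure D1:**
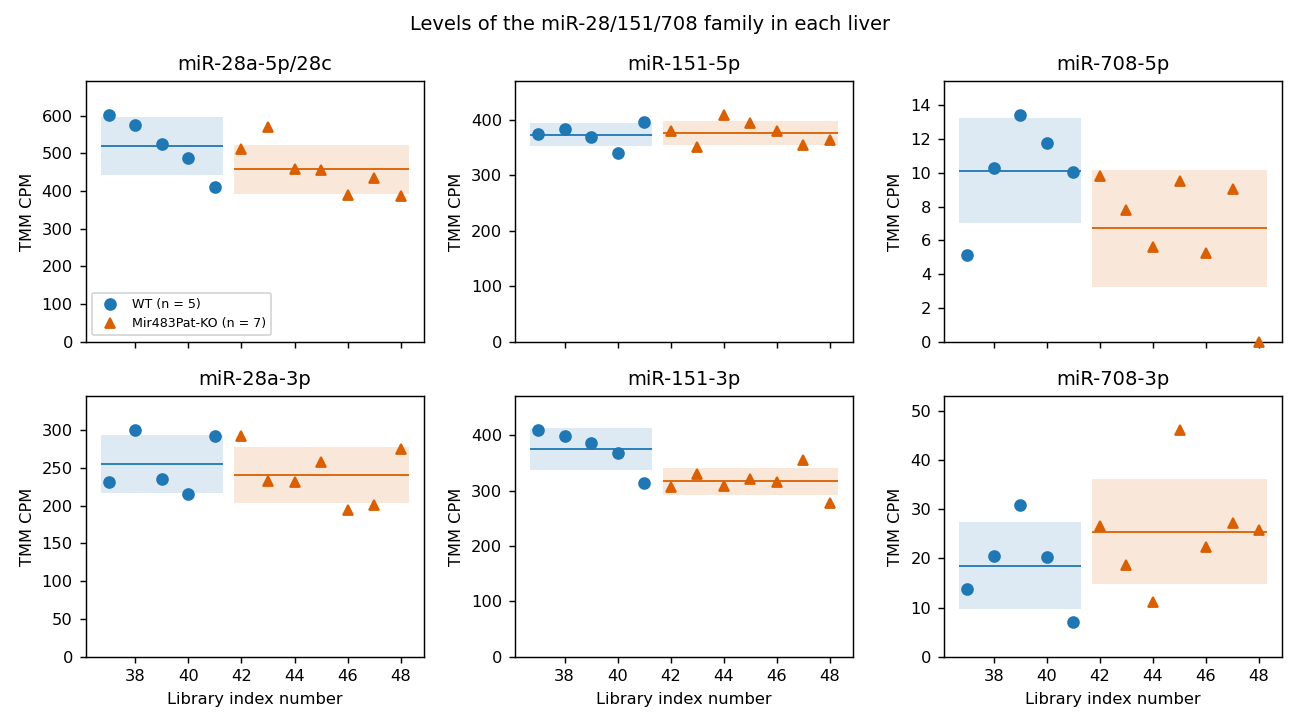
Level of each family member in each liver, in TMM-scaled CPM, against the library index number. Circles are WT livers (n = 5), triangles Mir483Pat-KO livers (n = 7), lines the genotype means and bands 1 SD; the vertical axes differ between panels and start at 0. miR-28a-5p/28c runs downward in both genotypes, miR-151-3p runs downward in WT from 410 to 314 CPM, and miR-151-5p stays between 339.9 and 408.2 CPM.

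In order of mean level the family ran miR-28a-5p/28c, miR-151-5p, miR-151-3p, miR-28a-3p, miR-708-3p and miR-708-5p. Among the 388 miRs kept by the filter on low counts, miR-28a-5p/28c ranked 106, miR-151-5p 117, miR-151-3p 125, miR-28a-3p 144 and miR-708-3p 314, and miR-708-5p did not pass the filter. miR-28a-5p/28c exceeded miR-151-5p in 12 of 12 livers, miR-151-3p exceeded miR-28a-3p in 12 of 12 and miR-28a-3p exceeded miR-708-3p in 12 of 12. miR-151-5p and miR-151-3p were the neighbors in this order that did not separate, since miR-151-5p was higher in 7 of 12 livers, made up of 1 of 5 WT and 6 of 7 Mir483Pat-KO livers. miR-708-3p exceeded miR-708-5p in 11 of 12, the exception being WT replicate 5.

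The rows of miR-28a-5p/28c and miR-708-5p were thus at very unequal levels. Of the reads of miR-28a-5p/28c and miR-708-5p together, miR-708-5p held 0.849% to 2.50% in the WT livers and 0% to 2.04% in the Mir483Pat-KO livers. How many reads of the joined row are those of miR-28c is unknown.

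The members also differed in how much they varied between livers of a genotype. The SD of log2 CPM within genotypes was 0.081 for miR-151-5p, and only 9 of the 142 abundant miRs (those whose log2 CPM averaged 8 or more) had a smaller one. miR-151-3p, at 0.13, was near the median of 0.14 of these abundant miRs. miR-28a-5p/28c (0.21) and miR-28a-3p (0.22) varied more than 124 and 129 of the 142, respectively. The SD of 0.61 for miR-708-3p is that of a miR with 7 to 34 reads per library.

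The genotype differences of the miR-28a and miR-151 arms were small, and those of miR-708 were imprecise. The log2 fold change of Mir483Pat-KO over WT was -0.18 (SE 0.11) for miR-28a-5p/28c and -0.086 (SE 0.12) for miR-28a-3p. It was 0.012 (SE 0.065) for miR-151-5p and -0.24 (SE 0.080) for miR-151-3p. The change of miR-151-3p was the member difference that stood farthest from 0 for its error, while miR-151-5p, from the same hairpin, lay at 0. For miR-708-3p it was 0.48 (SE 0.36), and for miR-708-5p, fitted without the filter, -0.60 (SE 0.64). Both miR-708 values rest on few reads and have wide errors, and leaving out 1 library moved that of miR-708-3p to 0.26 (without Mir483Pat-KO replicate 4), 0.27 (without WT replicate 5) or 0.69 (without WT replicate 3).

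Of the 5 members kept by the filter, none was called by the quasi-likelihood test of edgeR at an adjusted p under 0.05, beside 8 of 388 miRs called in all (2.06%). Without adjustment the count at 0.05 was 1 member, miR-151-3p, beside 68 of the 388 miRs (17.5%). DESeq2 called miR-151-3p, beside 6.96% of all miRs, and edgeR with library sizes alone as the scaling called it too, beside 3.61% of all miRs. The members were chosen by this contrast, so these counts are no test of them. 3 of 5 members had a log2 fold change below 0, as did 49.7% of all miRs, and the median was -0.086 over the members and 0.0028 over all miRs. In whole-liver RNA, fewer cells of a type and less of a miR per cell cannot be told apart. When index number entered the fit as a covariate, the change of miR-28a-5p/28c turned to 0.39 (SE 0.14) and that of miR-151-3p shrank to -0.076 (SE 0.15). Within the lower range of animal numbers (4 WT and 4 Mir483Pat-KO) they were -0.15 (SE 0.096) and -0.32 (SE 0.075); the upper range holds 1 WT liver only.

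**Figure D2:**
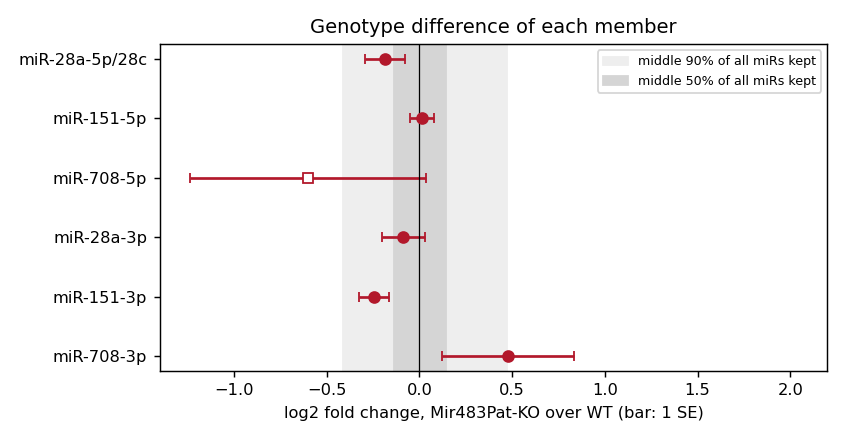
log2 fold change of Mir483Pat-KO over WT for each family member; bars are 1 SE. The shaded bands hold the middle 50% and the middle 90% of the 388 miRs kept, and the open square marks miR-708-5p, which was fitted without the filter. miR-151-3p at -0.24 and miR-28a-5p/28c at -0.18 lie below the middle 50% band, which ends at -0.13, and miR-151-5p lies at 0.012. Both miR-708 points lie outside the middle 90% band, with error bars that reach into it.

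Along the index order, miR-28a-5p/28c had a slope of -0.094 (SE 0.017) log2 CPM per index number, taken with 1 intercept per genotype. Within WT the slope was -0.13 (SE 0.018) and within Mir483Pat-KO -0.079 (SE 0.021). In the WT livers the level was lower at every step from index 37 to 41. Of the 142 abundant miRs, 2 had a lower slope, miR-429-3p and miR-126a-5p, which are named here after their values were seen. With each of the 12 libraries left out in turn, the slope of miR-28a-5p/28c stayed between -0.10 and -0.083.

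miR-151-3p followed the order in WT, with a slope of -0.088 (SE 0.021), but hardly in Mir483Pat-KO, at -0.0057 (SE 0.022). Without WT replicate 5, the WT liver of the upper animal range, its pooled slope moved from -0.027 to -0.013. The pooled slope of the partner strands was -0.019 (SE 0.036) for miR-28a-3p and -0.0073 (SE 0.014) for miR-151-5p. That of miR-28a-3p ran from -0.054 to 0.018 with each library left out, so it has no settled sign. The slope of the log2 ratio of 5p to 3p was -0.074 (SE 0.043) for miR-28a and 0.020 (SE 0.028) for miR-151, so a difference in slope between the strands of a hairpin was not shown. For miR-708-3p it was 0.0036 (SE 0.10), with opposite signs in WT (-0.16) and Mir483Pat-KO (0.061).

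A negative slope in both genotypes was found for 3 of the 5 members, miR-28a-5p/28c, miR-151-5p and miR-151-3p, beside 29.9% of all miRs and 37.3% of the abundant ones. miR-151-5p was counted on a WT slope of -0.00066 (SE 0.030). The count was 2 with RLE scaling, with library size alone, with the animal number in place of the index and in the lower range of animal numbers. It was also 2 without WT replicate 2, 3 or 4 and without Mir483Pat-KO replicate 1, 2, 3, 4 or 6, and 1 without Mir483Pat-KO replicate 7. The share of all miRs ran from 23.5% to 32.6% over the settings. The median slope was -0.019 over the members and -0.0020 over all miRs. The log2 library total had a pooled slope of 0.0039 (SE 0.037), with -0.077 (SE 0.088) in WT and 0.033 (SE 0.033) in Mir483Pat-KO. The hepatocyte marker miR-122-5p had a slope of -0.065 (SE 0.015), and the summed endothelial markers (miR-126a-3p and miR-126a-5p, 2 of 2 with negative slopes in both genotypes) had one of -0.074 (SE 0.032), over 953 to 1261 CPM in WT and 725 to 1221 CPM in Mir483Pat-KO. The summed erythroid markers (4 of 4 kept) had a slope of 0.036 (SE 0.028), those of white blood cells (3 of 4 kept, 1 marker at 0 in a library) -0.011 (SE 0.020) and those of mesenchymal cells (5 of 5 kept) -0.0078 (SE 0.014). None of these markers was called between genotypes, and their part in the slopes of the family was not tested.

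**Figure D3:**
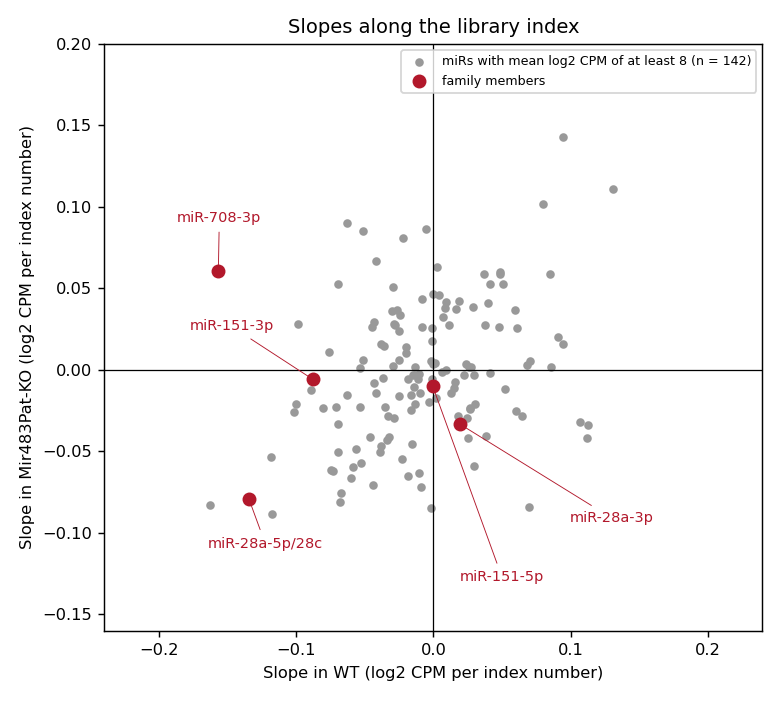
Slope of log2 CPM per index number within the WT livers (horizontal axis) and within the Mir483Pat-KO livers (vertical axis). Gray points are the 142 abundant miRs, whose log2 CPM averaged 8 or more, and red points the 5 family members kept by the filter. miR-28a-5p/28c lies at the lower left edge of the cloud, at -0.13 and -0.079, and the other members lie nearer 0 in at least one genotype.

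The ratio of the 5p to the 3p strand compares counts within a library and so does not depend on the scaling. It is given as log2 of the 5p over the 3p count, with 0.5 added to each. For miR-28a the 5p row was higher in 12 of 12 livers. The values in WT replicates 1 to 5 were 1.38, 0.943, 1.154, 1.18 and 0.49, and in Mir483Pat-KO they ranged from 0.49 to 1.29 with a median of 0.99. The means were 1.03 ± 0.34 (SD, n = 5) and 0.93 ± 0.26 (SD, n = 7), which are ratios of 2.04 and 1.91. The difference of -0.097 (SE 0.17) turned to 0.35 (SE 0.30) with the index as a covariate. The genotypes overlapped, and in each of them the liver with the highest index number had the lowest ratio. The row of miR-28a-5p also holds reads of miR-28c, so this ratio is an upper estimate for miR-28a alone.

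The miR-151 hairpin had nearly equal counts of its strands. The log2 ratio in WT replicates 1 to 5 was -0.13, -0.061, -0.062, -0.11 and 0.33. In Mir483Pat-KO it ranged from -0.0092 to 0.40 with a median of 0.30. The 3p strand was thus slightly ahead in 4 of 5 WT livers and the 5p strand in 6 of 7 Mir483Pat-KO livers, while WT replicate 5 lay among the Mir483Pat-KO values. The means were -0.0071 ± 0.19 (SD, n = 5) and 0.25 ± 0.15 (SD, n = 7), a difference of 0.25 (SE 0.099). Without WT replicate 5 the difference was 0.34, within the lower range of animal numbers 0.36 (SE 0.069), with the range as a factor 0.23 (SE 0.10) and with the index as a covariate 0.13 (SE 0.20). The difference kept its sign in each of these, and in the last its SE was larger than the difference itself. These values are descriptions, since the members were chosen by arm ratio and genotype difference.

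For miR-708 the ratio rests on 0 to 11 reads of the 5p strand. It was -1.34, -0.97, -1.16, -0.76 and 0.49 in WT replicates 1 to 5, and -5.29 to -0.93 with a median of -1.53 in Mir483Pat-KO. The 3p strand was ahead in 11 of 12 livers. The difference between genotypes was -1.32 (SE 0.72), and -0.78 without Mir483Pat-KO replicate 7, whose 0 reads of miR-708-5p make its value of -5.29 depend on the 0.5 added. Within the lower range of animal numbers it was -0.37 (SE 0.30), and with the index as a covariate its sign turned, at 0.19 (SE 1.36).

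The background was 96 hairpins with both arms kept by the filter. They are those whose arms have rows of matching names, with miR-28a added, and other hairpins with joined or differently named rows were left out. Over these 96 the median size of the log2 ratio was 2.42 and 23 were under 1. Only 2 of the 96 were more balanced than miR-151, and 21 were more balanced than miR-28a. The size of the genotype difference was larger than that of miR-151 in 41 hairpins and larger than that of miR-28a in 68, with a median of 0.21. The SD of the ratio within genotypes was 0.17 for miR-151, with 77 hairpins above it and a median of 0.32.

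**Figure D4:**
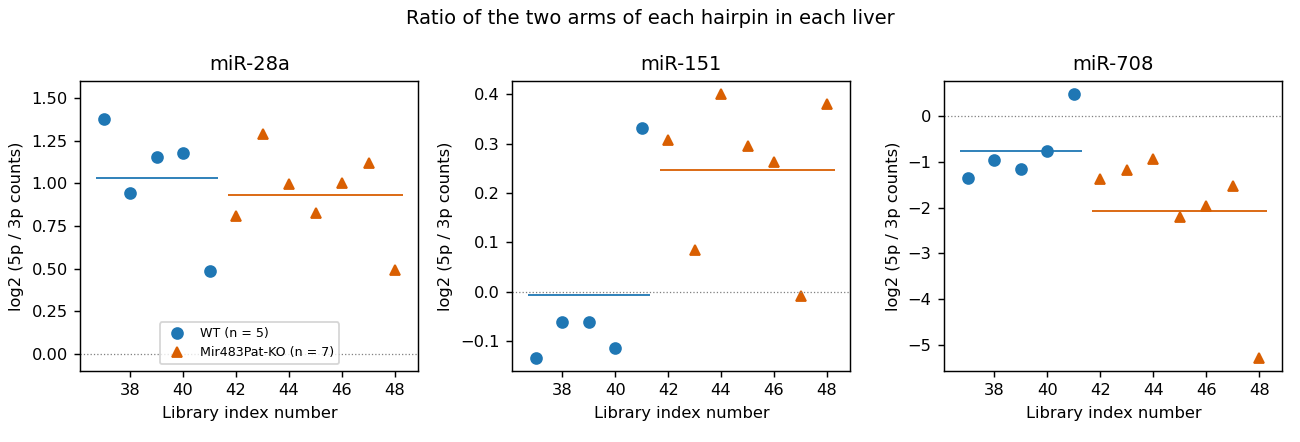
log2 ratio of 5p to 3p counts of each hairpin in each liver against the library index number. Circles are WT livers (n = 5), triangles Mir483Pat-KO livers (n = 7), solid lines the genotype means and the dotted line a ratio of 1; the vertical axes differ between panels. miR-28a lies above the dotted line in all livers, miR-151 lies close to it with WT replicate 5 among the Mir483Pat-KO values, and the lowest miR-708 point is the liver with 0 reads of miR-708-5p.

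The strands of a hairpin had weak correlations from liver to liver. After each genotype's mean was subtracted from log2 CPM, the correlation over the 12 livers was 0.059 between miR-28a-5p/28c and miR-28a-3p and -0.28 between miR-151-5p and miR-151-3p. Without the 2 livers farthest from the median they were 0.35 and -0.38, so the value for miR-28a rests on those livers. Over the 96 hairpins the median of this correlation was 0.15 and 33 were below 0, with 37 below that of miR-28a and 11 below that of miR-151. The highest correlation within the family was instead between strands of different hairpins, miR-28a-5p/28c and miR-151-3p, with Pearson's r of 0.66 and Spearman's rho of 0.55, and r of 0.51 without the 2 livers farthest from the median. miR-28a-3p and miR-151-3p had r of -0.49 (-0.70 without the 2 farthest livers), and miR-28a-3p and miR-151-5p r of 0.43 (0.42). These correlations share libraries and scaling, and are descriptions of 12 points.

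For each member kept by the filter, the abundant miR with the most similar course over the livers was sought among 139 candidates. For miR-28a-5p/28c it was miR-98-5p, a member of the let-7 family, with r of 0.93, rho of 0.93 and r of 0.87 without the 2 farthest livers. miR-98-5p was at 1773, 1761, 1656, 1616 and 1454 CPM in WT replicates 1 to 5, and it too was lower at each step of the index. Its slope of -0.043 (SE 0.011) was shallower than the -0.094 of miR-28a-5p/28c.

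For miR-151-3p the closest was let-7i-5p, with r of 0.85 and rho of 0.78, which came to r of 0.58 without the 2 farthest livers. let-7i-5p was lowest in WT replicate 5 and Mir483Pat-KO replicate 7, at 6574 and 6856 CPM, where miR-151-3p was lowest in each genotype as well. For miR-708-3p, with 7 to 34 reads per library, the closest was miR-199a-5p, with r of 0.84, rho of 0.85 and r of 0.76. miR-199a-5p is 1 of 5 mesenchymal markers on the marker list, and the correlations of miR-708-3p with the others are not given here. For miR-151-5p the closest was miR-148b-3p (r of 0.70, rho of 0.71, r of 0.57) and for miR-28a-3p it was miR-26b-5p (r of 0.68, rho of 0.83, r of 0.64). Each of these closest miRs has the highest of 139 correlations.

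**Figure D5:**
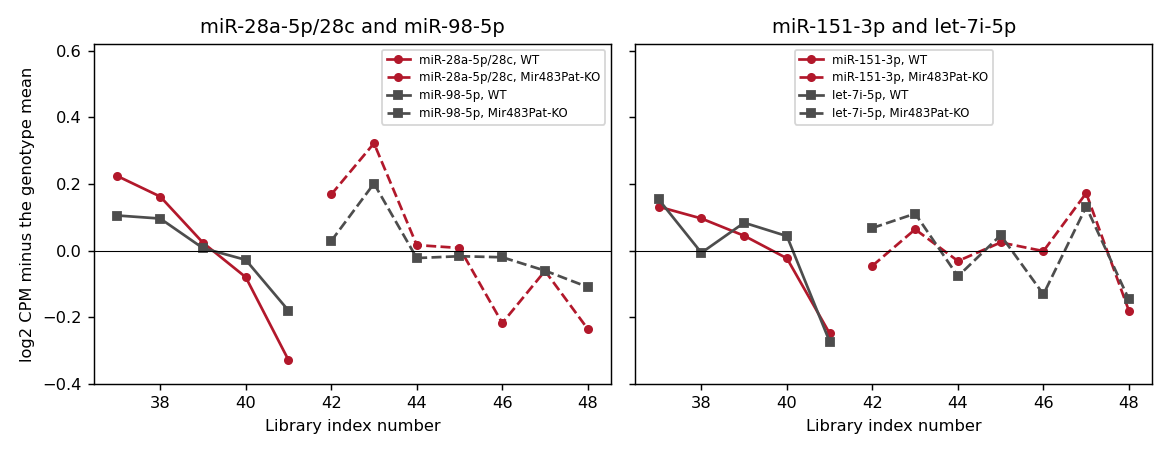
log2 CPM minus the genotype mean against the library index number for miR-28a-5p/28c with miR-98-5p (left) and for miR-151-3p with let-7i-5p (right). Red circles are the family member and gray squares the miR most like it, with solid lines for WT (n = 5) and dashed lines for Mir483Pat-KO (n = 7). The left pair runs downward in both genotypes with r of 0.93, and the right pair is low in WT replicate 5 and Mir483Pat-KO replicate 7 with r of 0.85.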

How the data were processed

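Small RNA libraries (TruSeq Small RNA kit, NovaSeq6000) were made from total liver RNA, 1 per fetus. The authors used miRge 3.0 for alignment and counting, and deposited raw counts per mature miR. The miR reference and how reads of near-identical miRs were divided are not given in the sources used here. Groups and replicate numbers came from the sample labels. Index numbers came from the header lines of the count table. The animal numbers are the numbers at the end of its column names.

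miRs were filtered with filterByExpr (minimum count 10, minimum total 15), leaving 388 of 682 with a count. TMM scaling and the quasi-likelihood test (genotype only, glmQLFit legacy = TRUE, Benjamini-Hochberg) were run in edgeR 4.0.16 under R 4.3.3 on the whole table, with DESeq2 1.42.0 as an alternative. The code was checked on simulated counts. Slopes used log2 CPM with a prior count of 2. The 31 pairs of libraries of 1 genotype differed by more than sampling noise (chi-square per degree of freedom 5.11 to 37.8), so none was counted as a duplicate. Counts of 1 do not occur in the table, and the lowest above 0 is 2. Floors of 3 counts cover counting error only.

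Named were the 6 members, rows of miR-28b, miR-28c, miR-151 or miR-708, miRs with a member's seed, miR-483, the markers and the miR most like each member. The members and lists were chosen with earlier results of these data known. Alternatives were other scalings, filters, tools, covariates and libraries left out; the lower animal range alone, and covariates for the arm ratios, were added after the data were seen.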

Additional observations from a re-analysis of the deposited data

Results flagged for a closer look

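2 of the 18 groups of values examined (level or arm ratio, by genotype) held a liver far from the others by Dixon's 95% limit, and chance marks about 1 in 20. In WT replicate 5 the log2 ratio of miR-151-5p to miR-151-3p was 0.33, and its gap to the nearest WT liver was 0.845 of the group's range. In Mir483Pat-KO replicate 7 the log2 ratio of miR-708-5p to miR-708-3p was -5.29, with a gap of 0.709 of the range, from 0 reads of the 5p strand and 19 of the 3p strand.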

How the results depend on the processing

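The number of members called between genotypes was 0 in the reported fit and under 20 of 22 alternatives. It was 1 with library size alone and 1 with DESeq2, both miR-151-3p (-0.31 and -0.26 on the log2 scale). Of all miRs, 2.06% were called in the reported fit, 3.61% with library size alone and 6.96% with DESeq2. Under the other alternatives 0.531% to 3.06% were called, so a count of 0 among 5 members is near these shares. The number of members with a negative slope in both genotypes was 3, and 1 to 4 with each library left out. It was 1 without Mir483Pat-KO replicate 7, 4 without WT replicate 5, 3 without WT replicate 1 or Mir483Pat-KO replicate 5, and 2 without any other library. The share of all miRs with such slopes ran from 23.5% to 32.6% over the settings. The number of hairpins with the 5p strand ahead on average in both genotypes was 1, and 1 to 2 with each library left out, since the WT mean of miR-151 passed 0 without WT replicate 1, 2, 3 or 4. The log2 fold change of miR-151-5p changed sign with RLE scaling (-0.0018), library size (-0.056), no filter (-0.012), a filter of 10 counts or more in every library (-0.0095) and DESeq2 (-0.0017), and ran from -0.022 to 0.035 with each library left out. With the index as a covariate it turned to 0.39 for miR-28a-5p/28c and to 0.014 for miR-28a-3p, and within the lower animal range to 0.031 for miR-28a-3p. The cause of these changes was not tested. Samples with the same replicate number did not deviate together (correlations -0.24 to 0.23 over 5 pairs, with 1 WT library closest to its own number). With the replicate number as a block, 0 members were called and 3 of 388 miRs (0.773%) in place of 8. That the genotypes occupy separate index numbers limits every genotype difference, and 0 to 34 reads limit miR-708.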
